A study of Mus musculus with 6 samples.

Results

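Mouse embryonic fibroblasts (MEFs) of the strain CBA/CaJ X C57BL/6J, 2 days into reprogramming towards pluripotency, were compared in 2 states that block the same lipid pathway at neighbouring points. In one, cells in the chemically defined medium iCD1 carried short hairpin RNAs (shRNAs) labelled shEtnk1/2, directed at the ethanolamine kinases. In the other, cells carried the control hairpin shLuc, directed at luciferase, and grew in iCD1 from which ethanolamine (Etn) had been left out (Etn-deprived). Each state is 1 of the 6 polyadenylated RNA libraries of the series, and 2 shLuc libraries in complete iCD1 serve as the reference for direction. The remaining libraries, shPcyt2 and shPebp1, in complete iCD1, carried hairpins against the next enzyme of the pathway and against the Raf kinase inhibitor protein Pebp1. All libraries thus come from transfected fibroblasts of the same strain and day. Of 18303 genes in the table, 11939 had a mean of at least 1 RPKM (reads per kilobase of transcript, scaled to library size) over the 6 libraries, and after 121 rows of short RNAs were left out 11818 were compared.

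Ethanolamine enters cells from the medium and is phosphorylated by ethanolamine kinase, encoded by Etnk1 and Etnk2. Pcyt2 then joins phosphoethanolamine to CTP, and CDP-ethanolamine is transferred to diacylglycerol to form phosphatidylethanolamine, a major phospholipid of cell membranes. Cells can also form phosphatidylethanolamine from phosphatidylserine in mitochondria, through the decarboxylase Pisd. In the early phase of reprogramming fibroblasts lose mesenchymal genes and take on epithelial ones, the transition this series was set up to study. The comparison asks which RNAs differ between cells short of the kinase and cells short of its substrate.

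Reads in genes came to 19623532 for shEtnk1/2, 18467583 for Etn-deprived, and 20020465 and 19535038 for shLuc replicates 1 and 2. The median gene compared had 712.75 reads per library and a transcript of 2952 nt. The labels do not state whether the shLuc libraries came from separate cultures, and p-values therefore measure only the spread between these samples, which may be technical. Summed over 12 fibroblast genes, RPKM lay between 3326 and 3763 in the 6 libraries, against 55.4 to 74.1 for 13 macrophage markers and 22.6 to 26.3 for 10 endothelial markers, 1 of which was at 0 in every library. Pebp1 stood at 250.4 RPKM in shLuc replicate 1 but at 100.7 in shLuc replicate 2, as low as the 99.6 of the library directed at it, so 1 shLuc library goes against its label for that gene.

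Etnk1 RNA was lower in the kinase library alone of the 6. It stood at 12.5 RPKM in shEtnk1/2, at 23.7 in Etn-deprived, at 21.02 and 21.45 in the shLuc libraries, at 19.8 in shPcyt2 and at 22.02 in shPebp1. The knockdown thus left 59.1% of the shLuc mean, and the difference from Etn-deprived was -0.87 on the log2(RPKM + 1) scale (SE 0.11, limma adjusted p = 3.3e-05). Etnk1 lies on chr6:143167230-143208547 (GRCm38.p6, plus strand). Etnk2, the second kinase gene, was too low to be tested, at 0.333 RPKM in shEtnk1/2 (15 reads), 0.519 in Etn-deprived (22 reads), and 0.457 and 1.00 in shLuc (21 and 45 reads). Of the other members of the pathway that were tested, none was called, and Pcyt2 stood at 35.5 RPKM in shEtnk1/2 and 33.5 in Etn-deprived, against 42.0 and 40.0 in shLuc. Of 10 tested genes that make phosphatidylserine, phosphatidylcholine or move choline, 0 were called (median difference -0.12), and Pisd stood at 15.7 RPKM in shEtnk1/2, 13.6 in Etn-deprived, and 16.3 and 15.3 in shLuc.

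Over all genes the libraries were close. By limma at an adjusted p under 0.05, 320 genes (2.71% of the 11818) differed, 169 higher (1.43%) and 151 lower (1.28%) in shEtnk1/2, and the median difference of all genes was -0.04. Against shLuc, shEtnk1/2 had 229 genes higher (1.94%) and 551 lower (4.66%), and Etn-deprived had 172 higher (1.46%) and 664 lower (5.62%). These comparisons share the shLuc libraries, and their balance moved with scaling: by median ratio shEtnk1/2 had 215 higher and 167 lower and Etn-deprived 91 and 352, and by quantile normalization 146 and 144, and 85 and 237. The spread in this fit came from the shLuc pair alone, which is 1 residual degree of freedom, and on simulated data such a fit made more false calls than its threshold allows. Without a test, 10 genes (0.0846%) lay at least 1 log2 unit apart, against 11 (0.0931%) between the shLuc libraries themselves. At 0.5 log2 unit, a size chosen after the values were seen, 140 genes (1.18%) were higher and 203 (1.72%) lower in shEtnk1/2, against 68 (0.575%) higher and 73 (0.618%) lower in shLuc replicate 2 than in replicate 1.

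A wider estimate of the spread, in which the shLuc, shPcyt2 and shPebp1 libraries were taken as 1 group, kept 15 genes (0.127%), and all 15 were also called by limma-voom on reads and after trends in transcript length, alone or with GC content, had been removed. Of these, 11 were lower in shEtnk1/2 (Acsbg1, Adap1, Ano1, Bche, Cebpd, Cml3, Etnk1, Fetub, L1td1, Lgals7 and Prkcb) and 4 were higher (Id1, Rpl28, Snrpd2 and Tmem258). Every other call named below is lost with that wider spread. Pooling those libraries favours genes in which they lie close together and shEtnk1/2 or Etn-deprived lies apart. That position in the 15 genes is therefore no separate result. With 1 shLuc library left out the pair gives no spread, so the remaining shLuc library was pooled with shPcyt2 and shPebp1. That fit, to be read against the 15 genes of the wider spread, called no gene without shLuc replicate 1 (1233 at an unadjusted p under 0.05; limma-voom on all libraries called 149 higher and 221 lower) and 5 without replicate 2 (Acsbg1, Cebpd, Cml3, Etnk1 and L1td1).

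**Figure D1:**
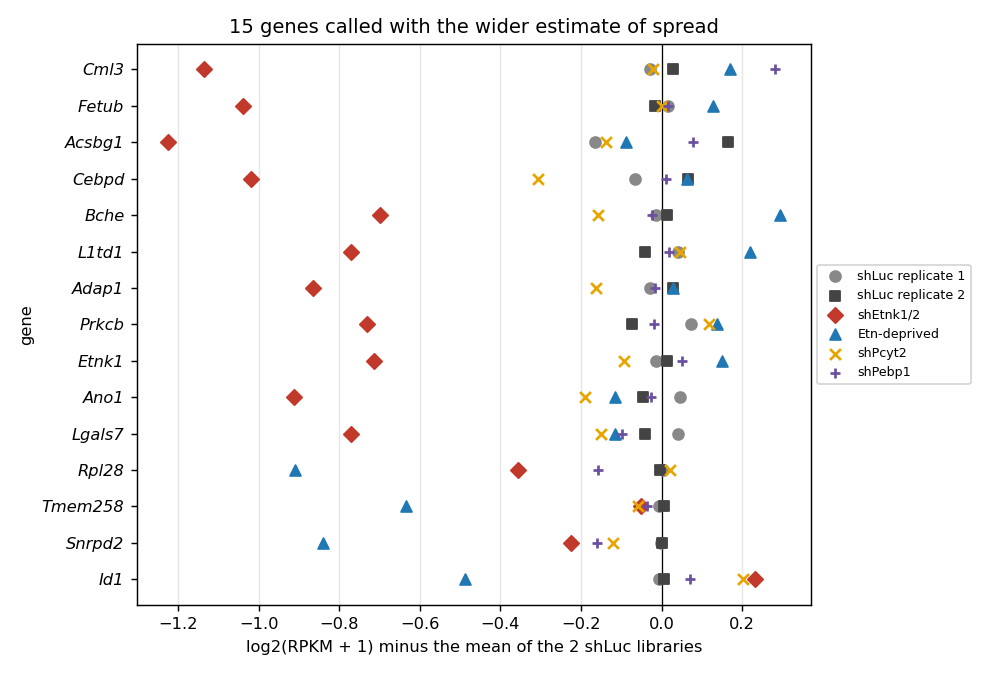
Log2(RPKM + 1) of 15 genes in each of the 6 libraries, minus the mean of the 2 shLuc libraries (x axis), 1 gene per line, 1 symbol per library. In 11 genes the red diamond of shEtnk1/2 lies left of every other library, and in Rpl28, Snrpd2, Tmem258 and Id1 the blue triangle of Etn-deprived does. The genes were chosen by a fit that took the shLuc, shPcyt2 and shPebp1 libraries as 1 group, which favours this pattern.

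The genes that stand apart in the kinase library include a fatty-acid enzyme, a secreted protease inhibitor and a transcription factor. Acsbg1 encodes an acyl-CoA synthetase that activates long-chain fatty acids. It stood at 4.40 RPKM in shEtnk1/2, 10.9 in Etn-deprived, 10.3 and 13.2 in shLuc, 10.5 in shPcyt2 and 12.3 in shPebp1, a difference of -1.14 (SE 0.15, limma adjusted p = 0.00073). The shEtnk1/2 library was the lowest and the other 5 overlapped. Fetub, which encodes the secreted cystatin-family protein fetuin-B, had few reads, 43 in shEtnk1/2 and 132 in Etn-deprived. Its level was 1.22 RPKM (95% Poisson interval 0.883 to 1.64, counting error only) in shEtnk1/2 and 3.98 (3.33 to 4.72) in Etn-deprived, with 3.61 and 3.50 in shLuc. The difference was -1.17 (SE 0.19, limma adjusted p = 0.00066), and the intervals did not overlap. With a pseudocount of 5 the differences of these low genes shrank, to -0.76 for Acsbg1 and -0.53 for Fetub.

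The 250 bases before the RefSeq start of these genes (GRCm38.p6) are shown because Acsbg1 and Fetub are, with Cml3, the 3 furthest below Etn-deprived among called genes with a mean of at least 50 reads. Acsbg1 is on the minus strand, with the window at chr9:54661886-54662135, and Fetub on the plus strand, at chr16:22918132-22918381. Capitals mark matches, on either strand, to a C/EBP-type motif (TTGCNNAA), the CCAAT box (CCAAT), the TATA box (TATAAA), the GC box (GGGCGG) and the octamer of POU factors (ATGCAAAT), the last added after the Acsbg1 letters had been read.
Acsbg1: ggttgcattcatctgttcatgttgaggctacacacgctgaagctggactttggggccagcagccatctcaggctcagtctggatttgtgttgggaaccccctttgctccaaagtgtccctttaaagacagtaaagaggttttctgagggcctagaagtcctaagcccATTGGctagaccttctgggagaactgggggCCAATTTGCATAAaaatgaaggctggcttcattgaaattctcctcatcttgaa
Fetub: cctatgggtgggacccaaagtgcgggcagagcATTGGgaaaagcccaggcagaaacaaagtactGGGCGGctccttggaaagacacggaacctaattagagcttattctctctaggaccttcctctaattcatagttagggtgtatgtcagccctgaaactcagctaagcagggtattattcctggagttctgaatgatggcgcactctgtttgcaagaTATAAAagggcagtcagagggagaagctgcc
In Acsbg1 the C/EBP-type match lies 41 to 48 bases before the start and overlaps the octamer match, on the minus strand, at 43 to 50. A CCAAT match adjoins the former at 49 to 53 and overlaps the octamer, and another lies on the minus strand at 79 to 83. Fetub has a TATA match at 26 to 31, a GC box match at 181 to 186 and a CCAAT match on the minus strand at 214 to 218. Among 32851 windows of the same length, 9.56% held TTGCNNAA, 33.8% CCAAT, 12.4% TATAAA, 32.7% GGGCGG and 1.60% the octamer. Of the 15 genes 12 had a window, and of those 2, 3, 1, 8 and 2 held the same motifs in that order. A gene was counted if any of its windows held the motif, whereas the shares are per window, so counts and shares are not directly comparable. The octamer count includes Acsbg1, whose letters led to that motif being added. Cebpd, Cml3 and Id1 were not matched.

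Cebpd encodes the transcription factor C/EBP delta, a regulator of fat-cell and inflammatory genes. It stood at 6.96 RPKM in shEtnk1/2, 15.9 in Etn-deprived, 14.4 and 15.9 in shLuc, 12.0 in shPcyt2 and 15.3 in shPebp1 (difference -1.08, SE 0.12, limma adjusted p = 7.1e-06). Cml3, of the camello-like acetyltransferases, had the largest deficit of the genes called with at least 50 reads, at 2.75 RPKM in shEtnk1/2 and 8.27 in Etn-deprived, with 7.09 and 7.41 in shLuc. Its neighbours in that family are close in sequence, so how reads were shared among them is uncertain. For both genes the shEtnk1/2 level was 46.0% and 38.0% of the shLuc mean, while Etn-deprived was at 104.8% and 114.1%.

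For L1td1 and Bche the libraries lay on opposite sides of shLuc. L1td1, an RNA-binding protein derived from a LINE-1 element and abundant in pluripotent cells, stood at 6.12 RPKM in shEtnk1/2 and 13.1 in Etn-deprived, with 11.5 and 10.8 in shLuc. Etn-deprived alone differed from shLuc by 0.22, which limma did not call (adjusted p = 0.26). Bche, the esterase butyrylcholinesterase, stood at 2.68 RPKM in shEtnk1/2, 6.33 in Etn-deprived, and 4.92 and 5.03 in shLuc. In both genes the shEtnk1/2 library was the lowest of the 6 and Etn-deprived the highest.

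The other 4 lower genes encode signalling, transport and surface proteins. Prkcb, a protein kinase C activated by diacylglycerol, stood at 5.48 RPKM in shEtnk1/2, 10.8 in Etn-deprived, and 10.3 and 9.23 in shLuc. Adap1, a GTPase-activating protein for Arf6 that binds phosphoinositides, stood at 5.65, 11.4, 10.9 and 11.4 RPKM in the same order. Ano1, a calcium-activated chloride channel, stood at 16.6, 29.6, 33.2 and 31.1 RPKM. Lgals7, the galectin of stratified epithelia, stood at 23.9, 38.2, 42.7 and 40.3 RPKM. In shEtnk1/2 these 4 genes were at 50.8% (Adap1) to 57.6% (Lgals7) of shLuc, whereas in Etn-deprived they were at 92.0% (Ano1) to 110.9% (Prkcb).

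Further genes led the list of lower calls without keeping them under the wider spread. Trh, the precursor of thyrotropin-releasing hormone, stood at 3.26 RPKM in shEtnk1/2, 8.31 in Etn-deprived, 8.60 and 9.58 in shLuc, 6.94 in shPcyt2 and 12.2 in shPebp1 (limma adjusted p = 2.6e-05, and 0.22 with the wider spread). The melatonin-receptor-related gene Gpr50 stood at 0.534 RPKM in shEtnk1/2 and 2.03 in Etn-deprived, with 2.09 and 1.52 in shLuc. Tfcp2l1, a transcription factor of naive pluripotent cells, stood at 1.57 RPKM in shEtnk1/2 and 4.05 in Etn-deprived, with 3.49 and 2.82 in shLuc (difference -0.98, SE 0.19, limma adjusted p = 0.0052). It was the 1 gene called among the 3 pluripotency genes tested of 16 listed, beside 1.28% called lower over all genes. The others tested did not follow it: Alpl was higher in shEtnk1/2 than in Etn-deprived (9.30 and 7.39 RPKM, difference 0.30) and Tet1 differed by -0.06. Neither was called.

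Where shLuc lay relative to the pair sorted the 320 called genes, as a description. Taking the position of the shLuc mean between the libraries, shEtnk1/2 stood apart from shLuc and Etn-deprived in 32 higher and 52 lower genes. Etn-deprived stood apart in 27 higher and 10 lower genes. The libraries lay on opposite sides of shLuc in 49 higher and 69 lower genes. On the same side, shEtnk1/2 lay further out in 12 higher and 19 lower genes, and Etn-deprived further out in 49 higher and 1 lower gene. Of the genes called in the comparison, 48 higher and 91 lower were also called for shEtnk1/2 and not for Etn-deprived against shLuc, and 72 and 15 the other way round. In both against shLuc 22 and 3 were called, and in neither 27 and 42. Over all genes 1.94% were called higher and 4.66% lower for shEtnk1/2 against shLuc, and 1.46% and 5.62% for Etn-deprived. Genes picked for a difference between the pair favour a call in only 1 of them, so these counts are no separate result.

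**Figure D2:**
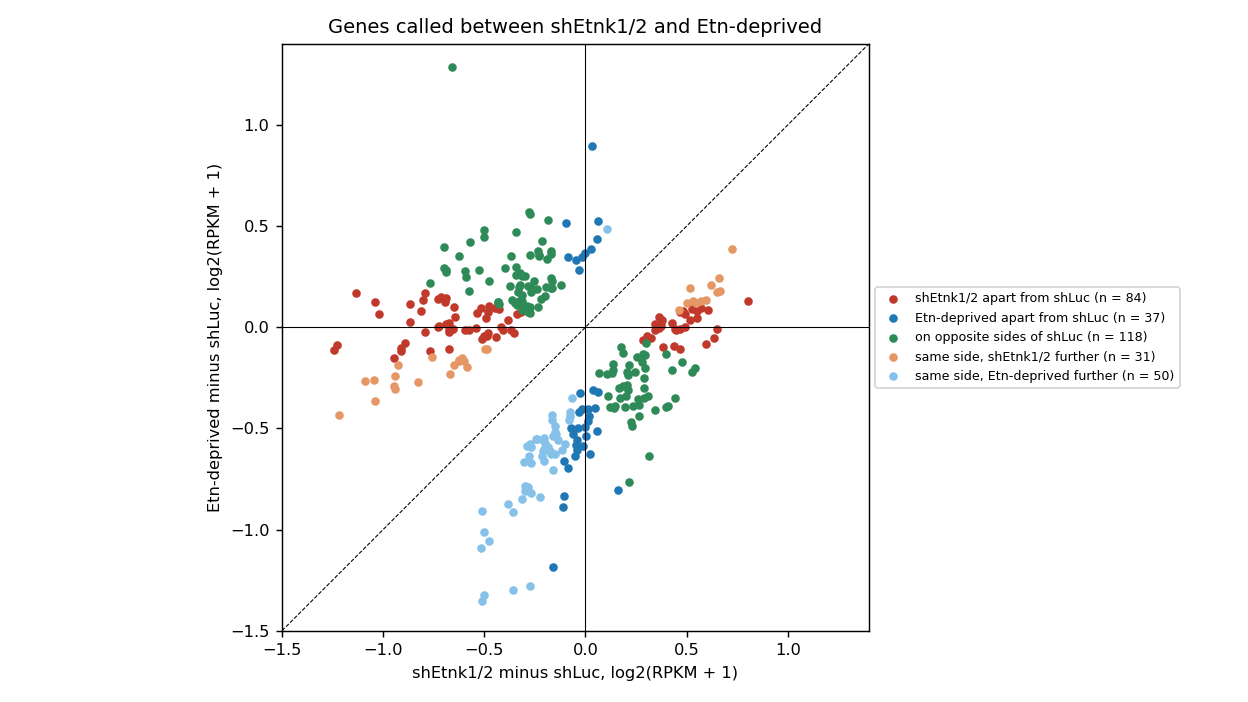
Each point is 1 of the 320 called genes, with shEtnk1/2 minus shLuc on the x axis and Etn-deprived minus shLuc on the y axis, both as log2(RPKM + 1); the dashed line marks equal values. Both axes use the same shLuc libraries, and colours give the 5 positions, such as 52 lower and 32 higher genes in red where shEtnk1/2 stood apart.

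Further genes called between the libraries lay on opposite sides of shLuc. Mfap4, a microfibril-associated protein of elastic fibres, stood at 161.7 RPKM in shEtnk1/2, 92.96 in Etn-deprived, and 114.2 and 123.0 in shLuc, and was called against shLuc in both libraries (limma adjusted p = 0.00035 and 0.0032). Adm, the vasodilator peptide adrenomedullin, stood at 3.85, 1.79, 2.94 and 2.39 RPKM in the same order, and Plaur, the urokinase receptor, at 7.69, 4.16, 5.19 and 6.59. All 3 were highest in shEtnk1/2. In shPcyt2, Mfap4 (151.9 RPKM) and Plaur (6.77) were also above both shLuc libraries, and Adm (2.32) was not. On the lower side, the cytokine Il18 stood at 2.86 RPKM in shEtnk1/2 and 5.96 in Etn-deprived, with 3.21 and 4.23 in shLuc. Tnfsf11 (RANKL), the cytokine that drives osteoclast formation, stood at 1.09 and 2.72 RPKM, with 1.62 and 1.43 in shLuc. Aoah, an enzyme that inactivates endotoxin, stood at 2.22 and 5.27 RPKM, with 4.82 and 3.65 in shLuc. For these 3 genes shEtnk1/2 was the lowest library and Etn-deprived the highest. Against shLuc, limma called Adm, Plaur and Tnfsf11 in neither library, Il18 in Etn-deprived (adjusted p = 0.031) and Aoah in shEtnk1/2 (adjusted p = 0.011).

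Where the kinase library stood apart and was higher, Itm2a, a membrane protein of early cartilage and muscle cells, stood at 163.2 RPKM against 113.8 in Etn-deprived, 103.0 and 111.1 in shLuc and 138.3 in shPcyt2. Lrrc32, which holds latent TGF-beta at the cell surface, stood at 26.1 RPKM against 17.2, with 17.9 and 19.4 in shLuc and 20.5 in shPcyt2. Where it was lower, the neuronal calcium sensor Vsnl1 stood at 1.05 RPKM against 2.92, with 2.43 and 2.70 in shLuc.

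Several matrix genes of fibroblasts were higher in the kinase library than in Etn-deprived and in both shLuc libraries. Of 9 tested small leucine-rich proteoglycans, which coat collagen fibrils, 5 were called higher (1.43% of all genes were) and 0 lower, with a median difference of 0.41 against -0.04 for all genes. Against shLuc 6 of the 9 were called higher in shEtnk1/2 (1.94% over all genes) and 5 in Etn-deprived (1.46%), with medians of 0.62 and 0.21. Kera (keratocan) stood at 26.8 RPKM in shEtnk1/2, 16.4 in Etn-deprived, 15.77 and 14.05 in shLuc, 18.8 in shPcyt2 and 18.0 in shPebp1 (difference 0.68, SE 0.12, limma adjusted p = 0.0015). Dcn (decorin) stood at 353.3 RPKM in shEtnk1/2 and 248.6 in Etn-deprived, with 257.5 and 224.5 in shLuc and 249.5 and 240.3 in shPcyt2 and shPebp1. For both genes shEtnk1/2 was the highest library. The other 5 lay close together for Dcn, whereas for Kera shPcyt2 and shPebp1 also lay above both shLuc libraries. Bgn (biglycan) stood at 1023 RPKM in shEtnk1/2, 766.8 in Etn-deprived, and 684.4 and 613.2 in shLuc. Etn-deprived was thus above shLuc too, as was shPcyt2 at 728.5 RPKM.

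Of 18 collagen genes 3 were called higher (1.43% over all genes) and 0 lower, 16 differences were above 0 and the median was 0.22. Col1a1, a chain of the main fibrillar collagen, stood at 3600.1 RPKM in shEtnk1/2, 2581 in Etn-deprived, 2322 and 2523 in shLuc, 2683 in shPcyt2 and 2002 in shPebp1 (difference 0.48, SE 0.07, limma adjusted p = 0.00029). With quantile normalization its difference was 0.09 and it was not called. Col6a3, of the beaded-filament collagen, stood at 174.5 and 137.0 RPKM in shEtnk1/2 and Etn-deprived, with 140.8 and 141.7 in shLuc. Col3a1 stood at 2634 and 2271 RPKM, with 2122 and 2119 in shLuc, and was not called (limma adjusted p = 0.075). Summed over the 18 genes, collagen RPKM was 12244 in shEtnk1/2, 10080.2 in Etn-deprived and between 8663 and 9946 in the other 4 libraries.

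Of 19 enzymes and helpers that build collagen 4 were called higher and 0 lower (median difference 0.21), again beside 1.43% higher over all genes, the share for the matricellular and integrin counts too. P4ha3, a prolyl hydroxylase subunit, stood at 19.1 RPKM in shEtnk1/2, 13.8 in Etn-deprived, and 13.0 and 12.9 in shLuc. Loxl1, a lysyl oxidase that cross-links matrix fibres, stood at 70.5, 55.2, 59.3 and 56.2 RPKM in that order. In shPcyt2, P4ha3 (16.7 RPKM) and Loxl1 (61.8) were also above both shLuc libraries. Among 12 matricellular genes 1 was called, Sparc, which binds collagen, at 1978 RPKM in shEtnk1/2 and 1534 in Etn-deprived, with 1569 and 1508 in shLuc. Postn (periostin) stood at 345.6 RPKM in shEtnk1/2 and 249.9 in Etn-deprived, both above the 169.7 and 200.6 of shLuc, and missed the threshold (limma adjusted p = 0.057). Of 12 integrins 1 was called, the collagen receptor chain Itga11, at 23.4 RPKM against 17.0, with 16.2 and 14.6 in shLuc. Sparc (1742 RPKM), Postn (222.5) and Itga11 (18.0) were above both shLuc libraries in shPcyt2 as well.

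Contractile genes had 3 of 11 called higher, beside 1.43% over all genes, and 0 lower (median difference 0.34). Myl9, a smooth-muscle myosin light chain, stood at 148.1 RPKM in shEtnk1/2, 91.6 in Etn-deprived, 86.2 and 104.5 in shLuc, 128.1 in shPcyt2 and 81.3 in shPebp1 (difference 0.69, SE 0.13, limma adjusted p = 0.038). Tagln, an actin-binding protein of the same cells, stood at 132.0 RPKM in shEtnk1/2 and 88.3 in Etn-deprived, and its shLuc libraries were at 68.8 and 92.7. Tagln stood at 105.0 RPKM in shPcyt2 and 59.8 in shPebp1, and was not called. For this list the shLuc libraries themselves differed by a median of 0.24, and for the proteoglycans by -0.16. Thy1, a surface protein of fibroblasts, was the 1 of 12 fibroblast identity genes called (1.43% higher over all genes). It stood at 71.5 RPKM in shEtnk1/2 and 52.0 in Etn-deprived, with 61.9 and 55.7 in shLuc. The 12 genes had a median difference of 0.04, with 7 above 0 and 5 below.

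Igfbp2, a secreted binding protein for insulin-like growth factors, stood at 101.6 RPKM in shEtnk1/2 and 64.0 in Etn-deprived, with 58.5 and 70.7 in shLuc and 87.4 in shPcyt2. It was called, as was Igfbp6, giving 2 of 10 genes of that family higher (1.43% over all genes) and 0 lower. Transcription factors of the mesenchymal state were not called, 0 of 9, with a median difference of 0.09. Snai1 stood at 13.8 RPKM in shEtnk1/2, 11.1 in Etn-deprived, and 7.91 and 10.6 in shLuc, and the 95% interval of the difference ran from -0.09 to 0.67.

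**Figure D3:**
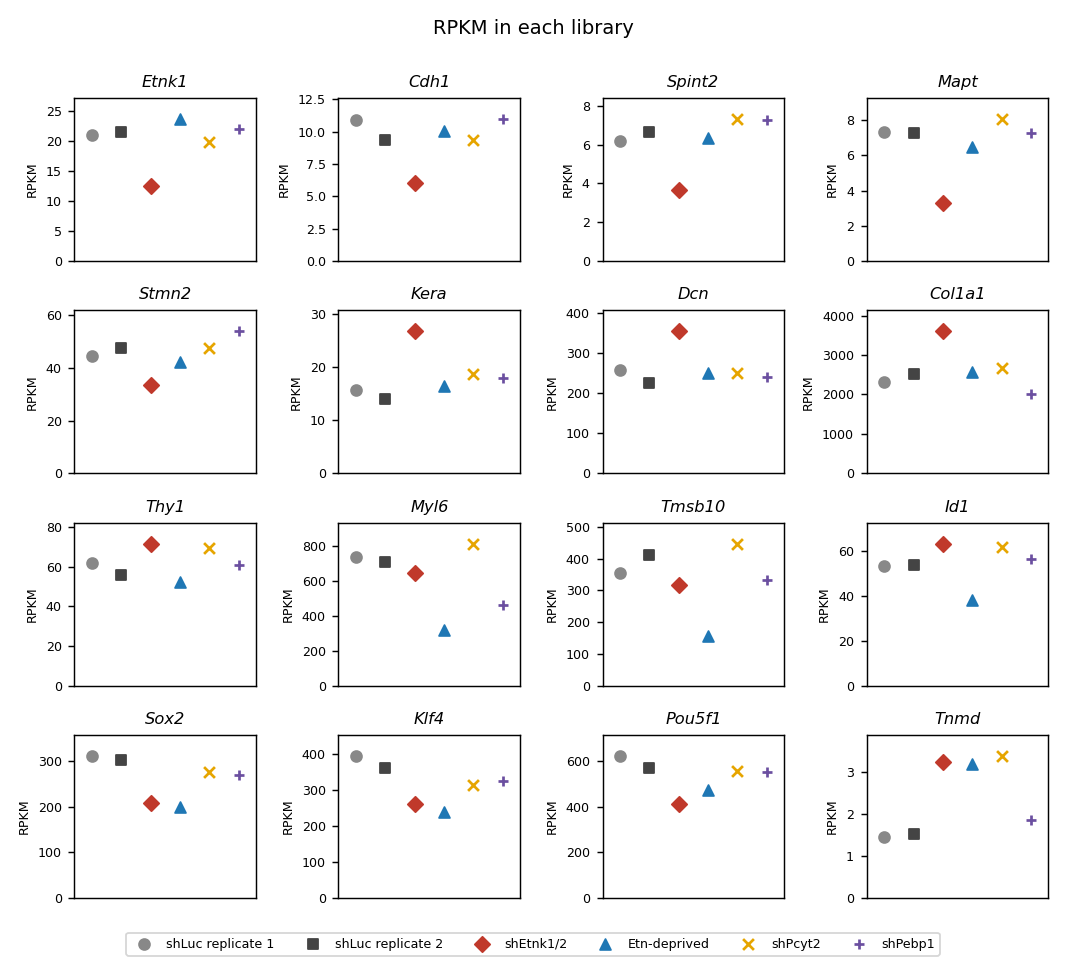
RPKM (y axis, from 0) of 16 genes in each of the 6 libraries, 1 symbol per library. Cdh1, Spint2, Mapt and Stmn2 are lowest in shEtnk1/2, Kera, Dcn and Col1a1 are highest there, and Myl6, Tmsb10 and Id1 are lowest in Etn-deprived. For Sox2 and Klf4 both libraries lie under shLuc, as do shPcyt2 and shPebp1.

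Epithelial genes had differences of the other sign. Of 11 tested 2 were called lower (1.28% over all genes) and 0 higher, 9 differences were below 0 and the median was -0.30. Cdh1 encodes E-cadherin, the adhesion protein of epithelial junctions. It stood at 6.04 RPKM in shEtnk1/2, 10.04 in Etn-deprived, 10.88 and 9.35 in shLuc, 9.34 in shPcyt2 and 10.98 in shPebp1 (difference -0.65, SE 0.14, limma adjusted p = 0.012). Spint2, an inhibitor of membrane serine proteases of epithelia, stood at 3.64 RPKM in shEtnk1/2, 6.33 in Etn-deprived, and 6.18 and 6.65 in shLuc. In both genes shEtnk1/2 was lowest and Etn-deprived lay within the shLuc range. Cdh3, P-cadherin, stood higher in shEtnk1/2 without being called, at 6.34 RPKM against 4.01. Epcam was near its floor in all libraries, at 0.909 RPKM in shEtnk1/2 and 1.02 in Etn-deprived, with 1.11 and 1.92 in shLuc.

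Of the 4 reprogramming factors 0 were called between the libraries. Against shLuc, 3 were called lower in each of them (Sox2, Klf4 and Pou5f1), beside 4.66% over all genes in shEtnk1/2 and 5.62% in Etn-deprived. Sox2 stood at 208.5 RPKM in shEtnk1/2 and 200.3 in Etn-deprived, with 310.7 and 302.8 in shLuc, and the 95% interval of the difference between the pair ran from -0.10 to 0.21. Klf4 stood at 262.0 and 238.0 RPKM, with 394.2 and 362.5 in shLuc (interval -0.02 to 0.30). Pou5f1 stood at 412.4 and 472.4 RPKM, with 619.8 and 569.1 in shLuc (interval -0.35 to -0.04, limma adjusted p = 0.19). For each of these 3 genes both libraries were below both shLuc libraries, and so were shPcyt2 and shPebp1. The latter stood at 276.8 and 270.2 RPKM for Sox2, 313.6 and 326.6 for Klf4, and 554.1 and 549.4 for Pou5f1. The table does not tell copies introduced for reprogramming from the endogenous genes.

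Of the neural and glial markers, Mapt, the microtubule protein tau, was called lower in the kinase library. It stood at 3.32 RPKM in shEtnk1/2, 6.49 in Etn-deprived, and 7.37 and 7.29 in shLuc (difference -0.79, SE 0.15, limma adjusted p = 0.0026). Stmn2, a microtubule-destabilizing protein of neurons, stood at 33.5 RPKM in shEtnk1/2 and 42.4 in Etn-deprived, with 44.4 and 47.7 in shLuc, and missed the threshold (limma adjusted p = 0.058). The 9 tested markers had a median difference of -0.19, and 0 were called higher. Summed over 14 such markers, RPKM was 125.8 in shEtnk1/2, 144.4 in Etn-deprived and 148.7 to 163.5 in the other 4 libraries, and the part of a cell mixture in the lower calls was not tested. In bulk RNA fewer cells of a type and less RNA per cell cannot be told apart. Of the macrophage, endothelial, skeletal muscle, keratinocyte, cartilage, adipocyte and tendon markers, 0 were called. The tendon gene Tnmd stood at 3.24 RPKM in shEtnk1/2 and 3.20 in Etn-deprived, above the 1.46 and 1.53 of shLuc. In shPcyt2 (3.39 RPKM, the highest library) and shPebp1 (1.86) it was above both shLuc libraries too.

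Id1 and Id3, inhibitors of helix-loop-helix factors that respond to bone morphogenetic protein (BMP), were the 2 of 8 BMP targets called, both higher in shEtnk1/2 (1.43% over all genes). Id1 stood at 63.3 RPKM in shEtnk1/2, 38.0 in Etn-deprived, 53.5 and 54.0 in shLuc, 62.0 in shPcyt2 and 56.5 in shPebp1 (difference 0.72, SE 0.09, limma adjusted p = 2.6e-05), and Etn-deprived was the lowest of the 6. Id3 stood at 116.5, 80.5, 88.0, 83.8, 110.8 and 89.7 RPKM in the same order, with shEtnk1/2 highest. Of 14 TGF-beta targets 0 were called (median difference 0.09).

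**Figure D4:**
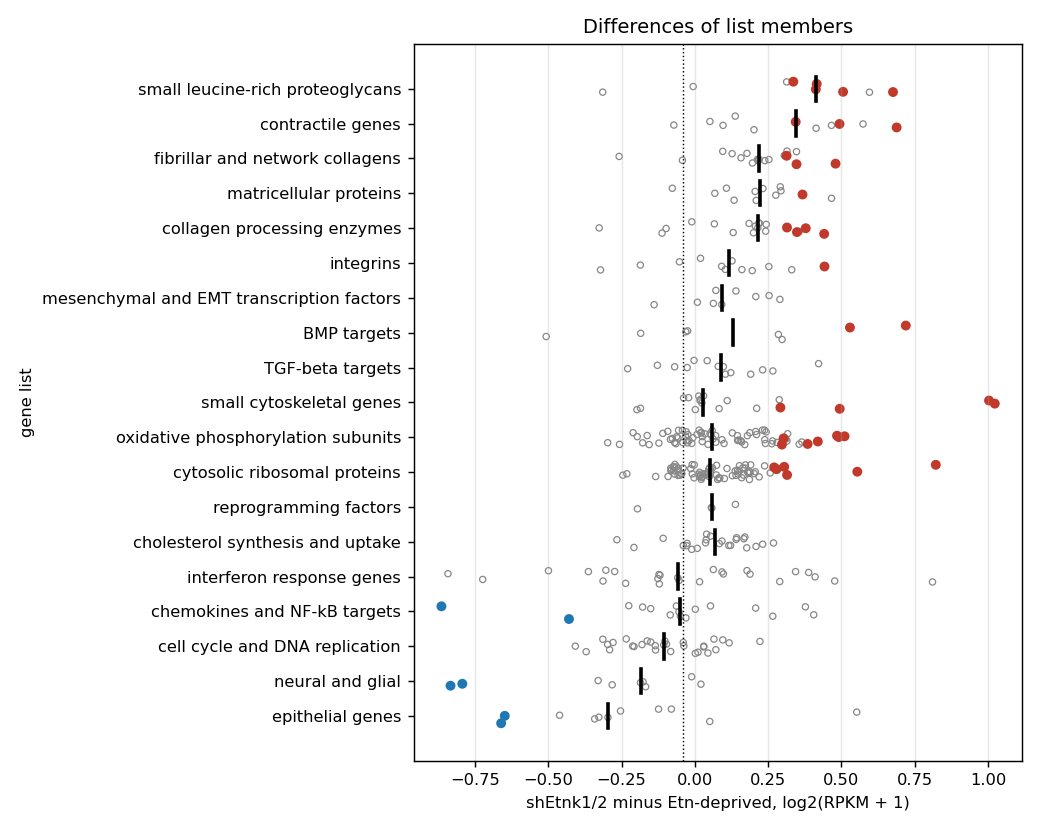
Difference between shEtnk1/2 and Etn-deprived in log2(RPKM + 1) (x axis) for the tested members of 19 gene lists, with red and blue for genes called higher and lower, open circles for the rest, a bar at each median and a dotted line at the median of all genes, -0.04. Proteoglycans have the highest median, 0.41, and epithelial genes the lowest, -0.30.

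The highest calls were of short transcripts that were low in Etn-deprived. Myl6, a non-muscle myosin light chain of 618 nt, stood at 645.2 RPKM in shEtnk1/2, 317.1 in Etn-deprived, 736.5 and 705.9 in shLuc, 810.9 in shPcyt2 and 459.3 in shPebp1 (difference 1.02, SE 0.07, limma adjusted p = 2.2e-09). Tmsb10, the actin-sequestering thymosin beta-10, stood at 315.3, 156.8, 355.6, 409.8, 446.3 and 334.1 RPKM in that order. Lgals1, galectin-1, stood at 1017 RPKM in shEtnk1/2 and 612.5 in Etn-deprived, with 1095 and 1090.4 in shLuc. For these 3 genes Etn-deprived was the lowest library, and shPebp1 was below both shLuc libraries as well. Of 18 small cytoskeletal genes 4 were called higher (1.43% over all genes) and 0 lower.

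In the 3 short genes that were higher in shEtnk1/2 and kept their call under the wider spread, Etn-deprived was the lowest library. Rpl28, a protein of the large ribosomal subunit, stood at 859.7 RPKM in shEtnk1/2, 585.2 in Etn-deprived, and 1104 and 1099 in shLuc. Snrpd2, a core protein of spliceosomal particles, stood at 100.7, 65.4, 117.8 and 118.1 RPKM, and Tmem258, a subunit of the oligosaccharyltransferase, at 53.9, 35.6, 55.6 and 56.1. Their transcripts measure 500, 491 and 514 nt. Ribosomal protein genes have many near-identical pseudogenes, so their values are uncertain.

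Length moved with these differences over the whole table. Among 326 genes of up to 700 nt the median difference from shLuc was -0.17 in shEtnk1/2 and -0.26 in Etn-deprived, and among 2288 genes over 5000 nt it was -0.04 and 0.04. In the shortest class 12.3% of genes were called higher in shEtnk1/2 and 3.37% lower, against 0.219% and 1.01% in the longest. The median length was 1252 nt for the 169 higher genes and 2461 nt for the 151 lower ones. Once the length trend of each library was removed, 61 of the 320 genes kept their call. The sizes moved less, with 328 genes at least 0.5 log2 unit apart against 343 before, while the prior degrees of freedom fell from 24.0 to 9.38. Of 75 oxidative phosphorylation subunits 7 were called higher, and of 79 ribosomal proteins 6, with 0 lower in either list. Over all genes 1.43% were called higher, and in the shortest class 12.3%. The median lengths of these lists, 697 and 715 nt, lie near the limit of that class. Their median differences of 0.06 and 0.05 became -0.00 and 0.00 with the trend removed. The median of all genes was -0.04 both before and after, so both lists stayed above it. The medians of the collagens (0.26), proteoglycans (0.40) and epithelial genes (-0.24) kept their sign. Most of the calls in such lists were lost: 2 of 3 collagens, 2 of 5 proteoglycans and 0 of 2 epithelial genes stayed called. Of the contractile genes 0 of 3 stayed called, and of the enzymes and helpers that build collagen 0 of 4. The part of transcript length in single calls was not tested.

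**Figure D5:**
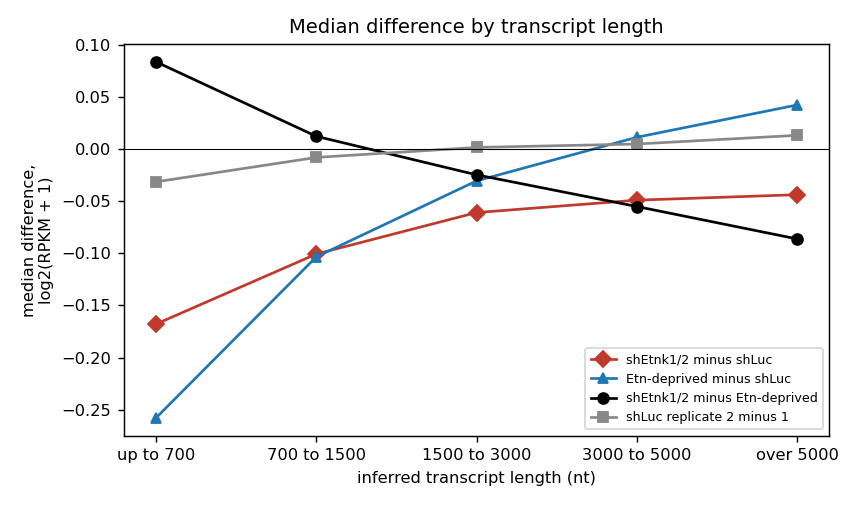
Median difference in log2(RPKM + 1) (y axis) by class of inferred transcript length in nt (x axis), for shEtnk1/2 and Etn-deprived against shLuc, for the pair against each other and for the shLuc libraries. Among genes of up to 700 nt Etn-deprived lies at -0.26 and shEtnk1/2 at -0.17.

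Among the genes called between the libraries, 10 were higher in Etn-deprived with shEtnk1/2 near shLuc. Ly96, the co-receptor of the endotoxin receptor TLR4, stood at 11.1 RPKM in Etn-deprived and 5.62 in shEtnk1/2, with 5.02 and 5.98 in shLuc and 7.45 and 7.48 in shPcyt2 and shPebp1 (difference -0.86, SE 0.15, limma adjusted p = 0.0017). Slc36a4, an amino acid transporter, stood at 17.2 RPKM in Etn-deprived and 12.2 in shEtnk1/2, with 11.6 and 11.7 in shLuc. Mff, a receptor for the mitochondrial fission machinery, stood at 53.3 RPKM in Etn-deprived and 40.7 in shEtnk1/2, with 38.2 and 40.1 in shLuc. In shPcyt2 (43.6 RPKM) and shPebp1 (45.6) Mff was above both shLuc libraries as well. Vcam1, an adhesion protein induced by NF-kB, lay on opposite sides of shLuc, at 26.8 RPKM in Etn-deprived and 19.7 in shEtnk1/2, with 24.2 and 22.7 in shLuc. With Ly96 it made 2 of 16 chemokine and NF-kB genes lower in shEtnk1/2 (1.28% over all genes) and 0 higher.

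Lists of stress and metabolism held no call between the libraries. These were cholesterol synthesis and uptake (24 genes tested), fatty acid synthesis (13), the integrated stress response (17), endoplasmic reticulum chaperones (18), cell cycle and DNA replication (30), p53 targets (16), glycolysis (15), autophagy and lysosome (22) and the interferon response (26). Their medians ran from -0.10 for the cell cycle to 0.09 for the integrated stress response. Over all genes 2.71% were called in either direction, so 0 calls in lists of 13 to 30 genes say little about any 1 list. The same holds for the other lists above with 0 calls. Interferon genes were higher than shLuc by a median of 0.27 in shEtnk1/2 and 0.25 in Etn-deprived, while the shLuc libraries differed by -0.14.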

How the data were processed

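Polyadenylated RNA was read as paired ends, per the labels' protocols, and the authors deposited 1 table of RPKM values with a column for each of 6 libraries. The aligner was Bowtie 0.12.2 and the build mm10, per the submitters' processing notes; for gene models, counting and strand the entry is "not given in the sources used here". For all 18303 genes (100.0%) the RPKM values were whole multiples of 1 read (tolerance 1e-05 reads plus a relative 5e-09), which gave reads and transcript lengths.

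The analysis took log2(RPKM + 1), a scale that shrinks changes of low genes, in limma 3.58.1 (R 4.3.3; trended, robust empirical Bayes; 5 group means; two-sided; Benjamini-Hochberg over 11818 genes; threshold 0.05). Each compared group has 1 library, so only the shLuc pair gave a spread (1 residual degree of freedom, prior 24.0) and each is assumed to vary as shLuc did. The text names the targeted genes, the 10 furthest called genes each way with at least 50 reads, the 8 furthest each way in 3 classes of position relative to shLuc, up to 4 members of each list, a panel, and, chosen after their values were seen, the 15 genes kept by the wider spread. The comparison, members and lists were chosen with earlier results of these data known. In the positions, a share of 0.8 to 1.2 of the difference lying between shEtnk1/2 and shLuc counts as shEtnk1/2 apart, and -0.2 to 0.2 as Etn-deprived apart. Alternatives covered pseudocounts, filters, scaling, length and GC trends, limma-voom, the spread and each shLuc library. On simulated data the fit found most changed genes in the right direction but made more false calls than its threshold allows. Coordinates, names and promoters come from RefSeq (GRCm38.p6), GC content from GENCODE M21. A further library named in the series' text is not analysed here, and 1 neural and glial marker is not reported here.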

Additional observations from a re-analysis of the deposited data

How the results depend on the processing

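No paired analysis was possible because only shLuc has numbered replicates. The 169 higher and 151 lower calls became 82 and 34 with libraries scaled to a common median ratio, 38 and 23 with quantile normalization, 57 and 45 with short RNA rows kept, 29 and 32 with the length trend removed, 55 and 77 with GC and length trends removed, 4 and 11 with the wider spread, and 0 and 0 with no filter on low values, where 2509 genes had an unadjusted p under 0.05. Leaving out an shLuc library also meant taking the spread from the other shLuc, shPcyt2 and shPebp1 libraries, so 2 choices changed together. It gave 0 to 0 higher and 0 to 5 lower calls, with 1233 (without replicate 1) and 1205 (without replicate 2) at an unadjusted p under 0.05. Limma-voom on reads called 149 and 221. For shEtnk1/2 against shLuc the 780 calls became 0 with no filter, 413 with short RNA rows kept, 382 by median ratio, 290 by quantile, 317 with the length trend and 504 with GC and length removed. For Etn-deprived against shLuc the 836 became 0, 454, 443, 322, 173 and 197 in the same order. The 10 genes at least 1 log2 unit apart became 79 with a pseudocount of 0.1, 2 with 5, 21 with no filter and 65 with short RNA rows kept, and the 343 at least 0.5 apart became 657 with a pseudocount of 0.1, 52 with 5 and 144 at a mean RPKM of at least 5. Scaling to a common median ratio shifted the median of all genes from -0.04 to 0.00. Of the named genes tested, no call changed direction in any of these alternatives, and 68 lost it with the wider spread, 83 without shLuc replicate 1 and 78 without replicate 2. With the length trend removed 47 lost it, and with GC and length trends removed 31. The cause was not tested. With a pseudocount of 5 the differences of further low genes were -0.78 for Cml3, -0.56 for Bche, -0.69 for Trh, -0.46 for Tfcp2l1, -0.39 for Spint2 and -0.47 for Mapt. The counts of position classes were within 1.5 times of those given with either shLuc library alone. Depth limits low genes such as Fetub, Gpr50 and Etnk2, and the single library in each compared state limits every result.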
